A study of Mus musculus with 15 samples.

Results

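Protein-coding genes that carried H3K4me3 at separate alternative promoters were identified in the amygdala of wild-type (WT) mice. A gene qualified when at least 2 H3K4me3 summits with a score of 50 or more lay within 1 kb of its own annotated transcription start sites (TSSs), lay more than 1 kb from the TSSs of all other protein-coding genes, and were 5 kb or more apart. The score is the value that MACS2 gave each peak summit and was taken as the −log10 q-value. On chromosomes 1 to 19 and X, 526 of 21755 protein-coding genes qualified, which is 2.42%. The share was 4.86% of the 10825 genes with annotated TSSs 3 kb or more apart, and 8.03% of the 6554 of those genes that had any qualifying summit. The other 6028 of these 6554 genes had qualifying summits at 1 place only, here called marked at 1 place, and served as the reference. Summits that failed the rule by score or by nearness to another gene were not counted. Some reference genes may therefore carry the mark at a further promoter. The 526 genes were thus chosen by their summit scores and the distances between summits, which are given as a description.

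The series comprised 11 H3K4me3 samples and 4 inputs from the amygdala of adult male mice, all of the F1 generation of a cross of 129S1/SvImJ with C57BL/6 and of 4 genotypes, namely WT, Kmt2a-HET, Kdm5c-KO and the Kmt2a-Kdm5c double mutant. Nuclei were digested with micrococcal nuclease without crosslinking, and the fragments were recovered with the rabbit monoclonal antibody RM340. The authors pooled the 2 WT H3K4me3 samples into 1 list of 24162 summits, the only list used here, and the mutants were not analysed here. The list therefore holds no spread between mice, no test between groups was possible, and every interval below covers counting error only.

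H3K4me3 is a methylation of histone H3 that lies on the nucleosomes beside active TSSs, and it is densest where the DNA is rich in CpG dinucleotides. Many genes have more than 1 promoter, and the choice among them sets the first exon and often the N-terminus of the protein. In the brain, genes of synaptic adhesion, cAMP breakdown and the cytoskeleton are well known for such promoters, and the neurotrophin gene Bdnf is the classical example. Amygdala nuclei come from neurons and glia together, so 2 marks on 1 gene may lie in the same cells or in different ones, and these cannot be told apart in bulk tissue.

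The sequences before 13 marked promoters of 3 genes are shown because they range from CpG-dense to CpG-free although all were marked. Each is the 150 bases before a TSS in the direction of transcription, read from GRCm38, with CG dinucleotides in capitals. Promoters are numbered from the most 5′ marked one. Where those bases would have overlapped an untranslated region, another TSS of the same promoter was used. The 6 of Abr, which encodes a regulator of small GTPases, are these.
Abr promoter 1 (chr11:76622315-76622464, minus strand, 14 CpGs): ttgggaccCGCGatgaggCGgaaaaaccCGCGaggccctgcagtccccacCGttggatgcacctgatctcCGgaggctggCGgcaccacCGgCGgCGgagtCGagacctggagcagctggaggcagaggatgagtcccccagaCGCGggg
Abr promoter 2 (chr11:76613396-76613545, minus strand, 2 CpGs): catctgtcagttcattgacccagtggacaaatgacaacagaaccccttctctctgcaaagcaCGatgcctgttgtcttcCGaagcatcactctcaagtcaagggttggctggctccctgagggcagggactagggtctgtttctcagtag
Abr promoter 3 (chr11:76571536-76571685, minus strand, 7 CpGs): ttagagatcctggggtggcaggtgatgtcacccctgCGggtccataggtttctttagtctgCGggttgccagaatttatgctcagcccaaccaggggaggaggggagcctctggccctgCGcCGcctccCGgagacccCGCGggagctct
Abr promoter 4 (chr11:76509420-76509569, minus strand, 4 CpGs): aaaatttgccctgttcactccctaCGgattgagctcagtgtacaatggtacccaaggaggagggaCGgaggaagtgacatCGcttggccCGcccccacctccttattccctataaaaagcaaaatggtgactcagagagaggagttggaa
Abr promoter 5 (chr11:76493930-76494079, minus strand, 0 CpGs): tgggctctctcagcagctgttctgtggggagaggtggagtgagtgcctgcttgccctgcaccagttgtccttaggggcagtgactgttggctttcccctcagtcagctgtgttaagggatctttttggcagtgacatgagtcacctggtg
Abr promoter 6 (chr11:76437221-76437370, minus strand, 5 CpGs): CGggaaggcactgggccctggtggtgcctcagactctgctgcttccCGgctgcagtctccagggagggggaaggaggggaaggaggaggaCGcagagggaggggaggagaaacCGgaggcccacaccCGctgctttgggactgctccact

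The 5 of Pde4d, which encodes a cAMP-specific phosphodiesterase, are these.
Pde4d promoter 1 (chr13:109116491-109116640, plus strand, 13 CpGs): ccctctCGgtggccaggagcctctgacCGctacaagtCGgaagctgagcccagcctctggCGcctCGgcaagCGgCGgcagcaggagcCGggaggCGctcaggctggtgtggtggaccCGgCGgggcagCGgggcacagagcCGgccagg
Pde4d promoter 2 (chr13:109260504-109260653, plus strand, 5 CpGs): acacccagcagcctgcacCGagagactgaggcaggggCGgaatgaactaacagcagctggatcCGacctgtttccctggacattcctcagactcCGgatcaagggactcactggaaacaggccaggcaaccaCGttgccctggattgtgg
Pde4d promoter 3 (chr13:109442033-109442182, plus strand, 1 CpGs): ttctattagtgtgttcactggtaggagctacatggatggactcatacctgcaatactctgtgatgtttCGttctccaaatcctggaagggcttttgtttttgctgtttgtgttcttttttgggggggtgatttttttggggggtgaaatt
Pde4d promoter 4 (chr13:109686006-109686155, plus strand, 4 CpGs): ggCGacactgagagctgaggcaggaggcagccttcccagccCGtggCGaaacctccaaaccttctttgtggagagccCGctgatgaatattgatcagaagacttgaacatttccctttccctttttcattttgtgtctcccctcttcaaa
Pde4d promoter 5 (chr13:109902952-109903101, plus strand, 21 CpGs): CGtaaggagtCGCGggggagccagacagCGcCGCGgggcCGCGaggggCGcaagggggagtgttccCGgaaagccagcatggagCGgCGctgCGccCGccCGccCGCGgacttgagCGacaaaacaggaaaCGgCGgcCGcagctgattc

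The 2 of Bdnf, which encodes brain-derived neurotrophic factor, are these.
Bdnf promoter 1 (chr2:109676882-109677031, plus strand, 3 CpGs): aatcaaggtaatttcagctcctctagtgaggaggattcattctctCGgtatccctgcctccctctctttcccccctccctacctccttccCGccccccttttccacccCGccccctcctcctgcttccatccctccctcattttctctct
Bdnf promoter 2 (chr2:109693413-109693562, plus strand, 14 CpGs): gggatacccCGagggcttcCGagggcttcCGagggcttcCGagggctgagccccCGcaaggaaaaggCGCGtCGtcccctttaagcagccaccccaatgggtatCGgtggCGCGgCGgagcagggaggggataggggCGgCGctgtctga

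The 526 genes carried 1151 separate marked promoters. Promoters were separated from 5′ to 3′, a summit 5 kb or more from the first summit of a promoter opening the next one, and the highest summit stood for its promoter. Of the genes, 451 (85.7%) had 2 marked promoters, 58 (11%) had 3, 11 had 4, 5 had 5, and Abr alone had 6. The most 5′ marked promoter of each gene is called the first promoter, and the other 625 are called later promoters. The outermost marked promoters of a gene lay a median of 56.4 kb apart (95% interval 50.6 to 64.9), with quartiles of 20.8 and 151.2 kb. The distance was 5 to 10 kb in 65 genes, 10 to 50 kb in 174, 50 to 100 kb in 110, 100 to 500 kb in 146 and 500 kb or more in 31.

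In Abr, the scores from 5′ to 3′ were 122.6, 78.0, 236.1, 158.4, 154.4 and 75.8 across 186 kb. The promoter with the highest score was therefore the third, whose summit lay 52.0 kb from that of the first. Of the 8 annotated promoters of Abr, the remaining 2 had summits of 4.63 and 21.1. In Pde4d the 5 scores were 179.8, 155.0, 243.8, 108.4 and 176.8 across 787 kb. A further annotated Pde4d promoter had a summit of 7.38, and 7 others had none, among them the 3 most 5′ ones.

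Pde4b, which encodes another cAMP phosphodiesterase, had 5 promoters with scores of 177.9, 192.8, 94.1, 117.6 and 158.0 across 502 kb. Celf2, which encodes a splicing regulator, had scores of 165.2, 50.4, 253.4, 209.6 and 58.8, so 2 of its 5 promoters lay close to the threshold. Ank2, which encodes the membrane-cytoskeleton linker ankyrin-B, had scores of 205.9, 253.4, 127.7, 266.8 and 61.0. In Gramd1b, which encodes a sterol transfer protein, they were 131.2, 147.7, 68.7, 208.6 and 174.3. In all of these genes the highest score belonged to a later promoter. Of the 11 genes with 4 promoters, the 4 with the largest distances between outermost promoters were taken next. Among these 4, the highest score belonged to the first promoter in Magi2, Kcnip4 and Frmd4a and to the last one in Camta1. In most of the other genes with 4 promoters it belonged to a later promoter.

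**Figure D1:**
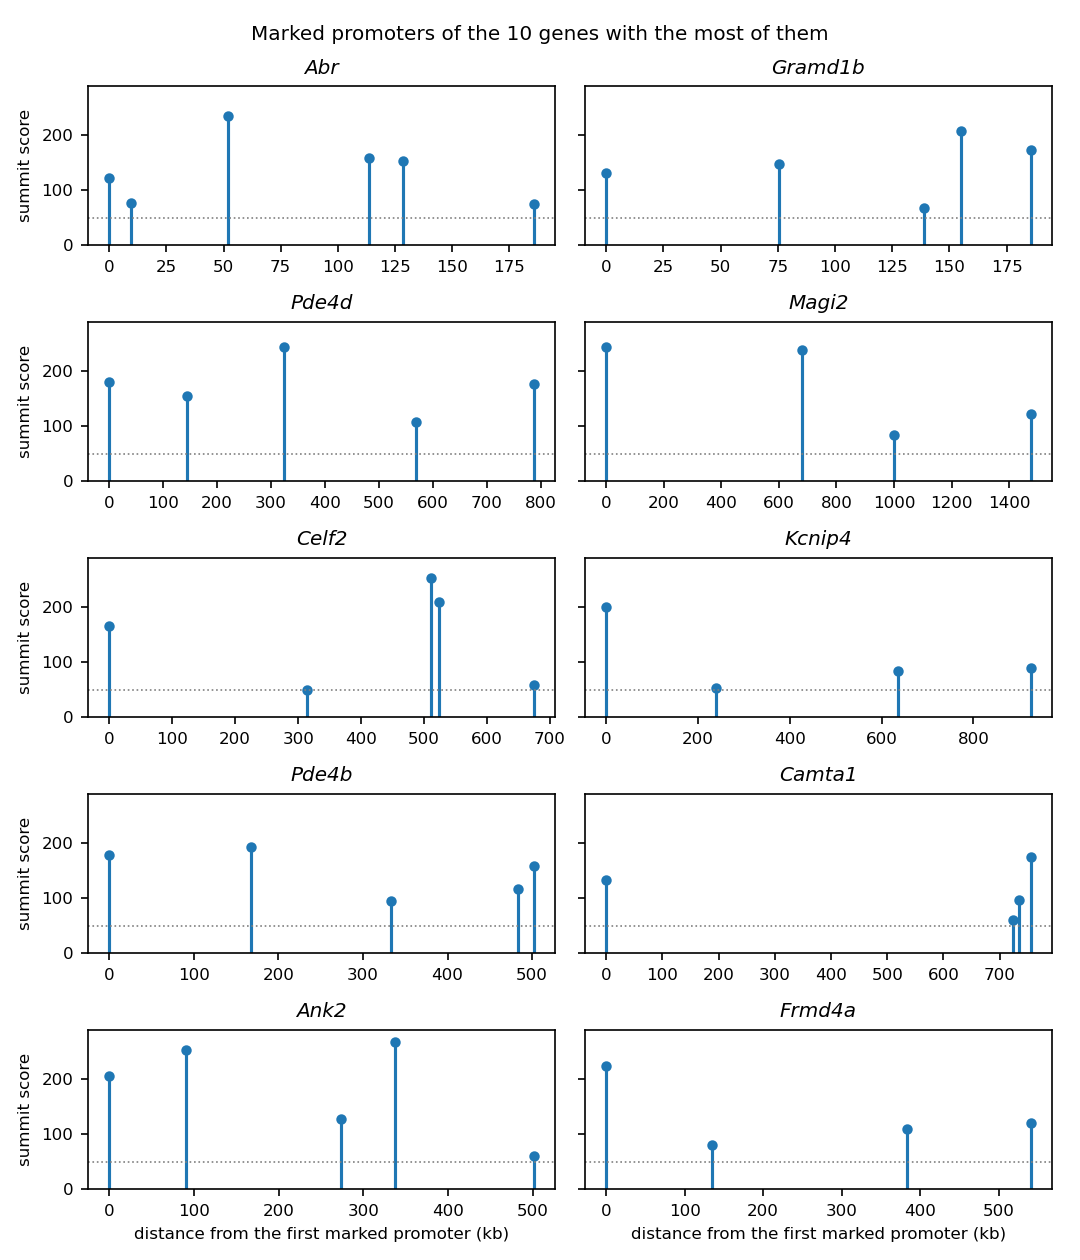
Marked promoters of the 10 genes with the most of them, ties broken by the larger distance between the outermost promoters. Each panel plots 1 gene, with the distance from the first marked promoter (kb) on the x axis, the summit score on the y axis, 1 stem per promoter and a dotted line at the threshold of 50. Abr shows 6 stems, the highest at 236.1, and distances run from 186 kb in Abr and Gramd1b to 1475 kb in Magi2.

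The largest distance, 2184 kb, was found in Cntnap2, which encodes a neuronal adhesion protein, with scores of 244.7, 95.8 and 167.9. Ptprd, a receptor tyrosine phosphatase of synapses, followed with 183.4 and 67.6 at 1867 kb. In Lsamp, which encodes a GPI-anchored adhesion protein, 271.7 and 189.1 lay 1549 kb apart. Magi2, a synaptic scaffold, spanned 1475 kb with scores of 243.8, 238.8, 84.3 and 122.7. Lrrc4c, which encodes the netrin-G ligand NGL-1, spanned 1151 kb with 212.6 and 233.2. These 5 genes differed in which end scored higher, the later one only in Lrrc4c.

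First promoters had a median score of 174.3 (165.4 to 179.8) and later ones of 154.4 (143.7 to 160.8), while the marked place of reference genes had a median of 200.2. The strongest promoter of each gene also had a median of 200.2, and the weakest a median of 115.8. For comparison, the median of the whole list was 102.3, and the weakest promoter reached it in 316 genes (60.1%, 55.8 to 64.2). The first promoter was the highest in 282 genes (53.6%, 49.3 to 57.8). Among genes with 2 promoters it was the higher in 251 of 451 (55.7%, 51 to 60.2), and in 112 of these genes (24.8%) the 2 scores lay within 25 units.

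Several genes had strong marks at both promoters. Fis1, which encodes a mitochondrial fission protein, had 257.2 and 253.4, and the reticulon gene Rtn1 had 253.4 and 247.6. Atp2b2, a plasma membrane calcium pump, had 246.2 and 250.4, and Clcn3, a chloride-proton exchanger, had 255.6 and 241.9. In Tcaf1 the 2 scores were 263.0 and 237.4. These genes were picked for the highest score of the weakest promoter, so all of their promoters lay well above the list's median by choice.

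Other genes were unequal. The first promoter exceeded the later one most in Limch1 (266.8 and 62.6), Lmna (253.5 and 57.5), Rcc1 (299.8 and 105.7), Hmox2 (251.3 and 58.0) and Nacad (258.4 and 70.1). Among these, Lmna encodes nuclear lamins A and C, Rcc1 the exchange factor of Ran, and Hmox2 a heme oxygenase. The reverse was found in Rufy3 (87.6 and 307.1), Prkcz (54.3 and 253.8), 1110004F10Rik (68.6 and 241.9), Dpysl3 (68.5 and 240.0) and Sall2 (81.1 and 251.5). Rufy3 functions in neuronal polarity, Prkcz encodes atypical protein kinase C zeta, and Dpysl3 encodes a collapsin response mediator protein. The later promoter of Rufy3 scored higher than 99.9% of the list.

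**Figure D2:**
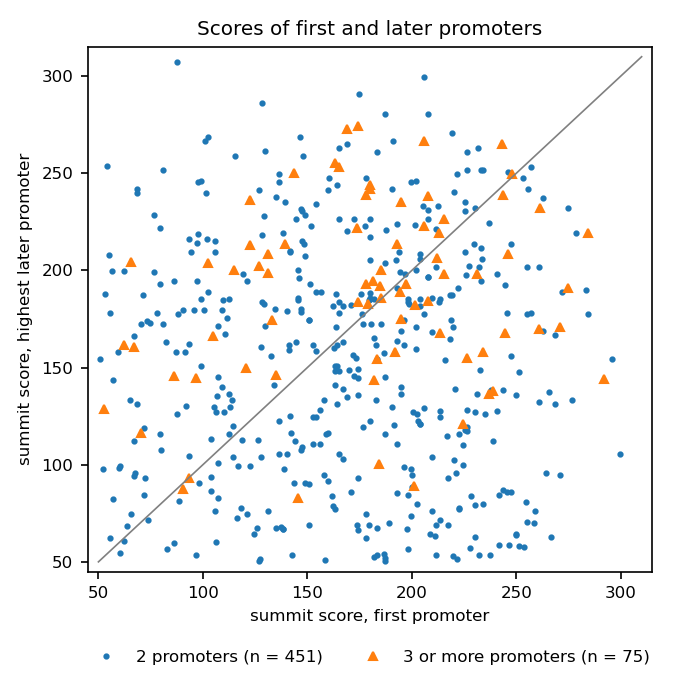
Scores of first and later promoters of the 526 genes. The x axis is the summit score of the first promoter, the y axis that of the highest later promoter, each point is 1 gene, and the grey line marks equal scores; 282 genes lie below the line.

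At the score threshold, the limiting scores of the genes just inside were 50.6 in Amz1, Rufy1 and Vgf, and those just outside were 49.7 in Zfp148, Rgs8 and Celf6. At the distance threshold, Zfp65 (5007 bp), Dok4 (5042 bp) and Lmo1 (5105 bp) lay inside, and Zmynd8 (4980 bp), Syt17 (4924 bp) and Dpf1 (4908 bp) outside. The limiting score was 50 to 60 in 37 members, and it was 40 to 50 in 58 genes left out. The distance was 5 to 6 kb in 11 members and 4 to 5 kb in 19 genes left out.

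The CpG content of the DNA, which the selection did not use directly, differed between first and later promoters. It was measured as the observed number of CpGs over the number expected from base composition, in 500 bp either side of the TSS. The median was 0.714 (0.697 to 0.732) at first promoters and 0.476 (0.451 to 0.499) at later ones, against 0.751 in reference genes. Without the exclusion near other genes the median of later promoters was 0.528, so these values depended in part on the selection. Among genes with 2 promoters, the first had the higher value in 308 of 451 (68.3%, 63.9 to 72.4). A value below 0.4 was found at 57 first promoters (10.8%), 236 later promoters (37.8%) and 4.46% of reference genes. A value of 0.6 or more was found at 68.1% of first and 33.1% of later promoters.

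Promoters of low CpG content were found at low and at high scores. Later promoters below 0.4 had a median score of 134.0, those from 0.4 to 0.6 of 154.7, and those of 0.6 or more of 161.6, and the intervals of these medians overlapped between neighbouring classes. In Rufy3 the weakly marked first promoter had a CpG value of 1.02 and the strongly marked later one of 0.329. The third promoter of Pde4d had the highest score of that gene and a value of 0.301. The fifth promoter of Abr, without a CpG in the 150 bases shown, had a value of 0.198 and a score of 154.4. The opposite order of CpG content was found in Bdnf, with 0.541 at the first promoter and 0.685 at the later one.

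The 526 genes had 2344 annotated promoters, counting TSSs as 1 promoter by the same separation. Of these, 1158 (49.4%) had a summit of 50 or more, 111 (4.74%) a weaker one and 1075 (45.9%) none. Their median CpG values were 0.560, 0.331 and 0.248. At least 1 protein-coding transcript started at 90.6% of the annotated promoters with a summit of 50 or more and at 44.5% of those without a summit. Every annotated promoter was marked in 102 genes (19.4%). Because the rule required at least 2 marked promoters in every gene, the share marked and these 102 genes are partly set by the selection. Both are given as a description.

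**Figure D3:**
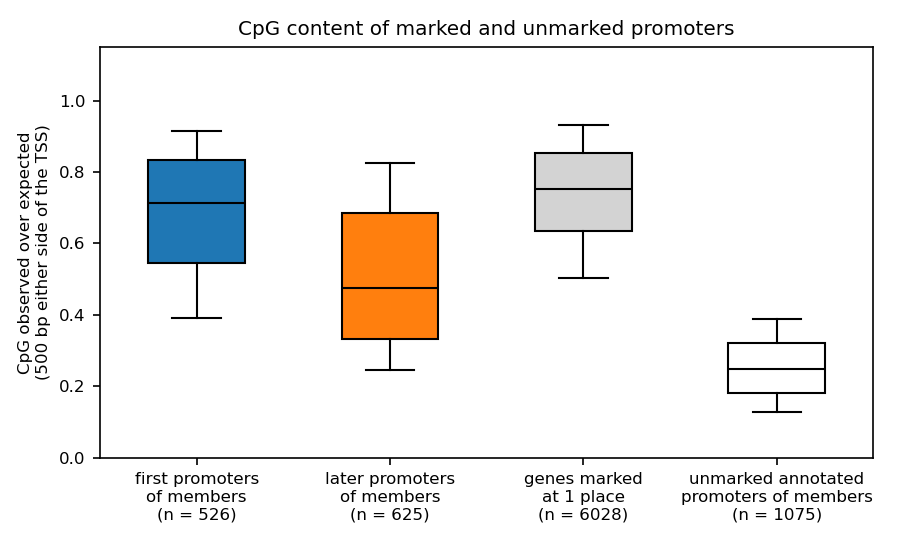
CpG observed over expected (y axis, 500 bp either side of the TSS) at the first and later promoters of the 526 genes, at the marked place of genes marked at 1 place, and at annotated promoters of the 526 genes without a summit. Boxes show the median and quartiles and whiskers reach the 10th and 90th percentiles; the medians are 0.714, 0.476, 0.751 and 0.248.

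Short sequence motifs were counted on both strands in the 200 bases before the TSS. The GC box GGGCGG, which itself holds a CpG, was found at 62.7% of first promoters, 34.7% of later ones and 11.9% of later ones with a CpG value below 0.4. Its share was 64.1% in reference genes and 37.8% at the outermost TSS of all protein-coding genes. The AP-1 motif TGANTCA was found at 1.9% of first promoters (1.04 to 3.46), 4.8% of later ones (3.38 to 6.77), 1.94% of reference genes (1.62 to 2.32) and 4.79% of all outermost TSSs. The ETS motif CCGGAAG, also with a CpG, was found at 5.51% of first (3.87 to 7.81) and 2.56% of later promoters (1.58 to 4.12), against 12.9% in reference genes and 7.47% of all outermost TSSs. For AP-1 and ETS, the intervals of first and later promoters overlapped. TATAAA was found at 2.85% of first promoters (1.74 to 4.65), 3.84% of later ones (2.59 to 5.65) and 5.93% of later ones with a CpG value below 0.4 (3.57 to 9.71), against 2.19% in reference genes (1.85 to 2.59) and 9.27% of all outermost TSSs. The CRE motif TGACGTCA was found at 1.52% and 2.24%, the NRF1 motif at 0.951% and 0.16%, and the MEF2 motif at 0.951% and 1.6%, with overlapping intervals for all 3. In reference genes these 3 shares were 2.22%, 1.56% and 1.34%, and at all outermost TSSs they were 1.87%, 0.892% and 2.46%.

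The summit lay a median of 216.5 bp downstream of the TSS at first promoters (197 to 244) and 189 bp downstream at later ones (166 to 204). It lay downstream at 85.6% of first and 83.2% of later promoters. A single qualifying summit marked 92.2% of first and 96.8% of later promoters.

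Later promoters lay mostly inside the gene. The TSS was in an intron of the transcript with the longest coding sequence at the first promoter in 560 of 625 (89.6%), in an exon in 36, and beyond its end in 29. Of the 560, 40% lay in intron 1, 41.6% in introns 2 to 5 and 18.4% further in. The later promoter of Utrn, which encodes the dystrophin relative utrophin, lay in intron 51. Of the later promoters, 533 (85.3%) started at least 1 annotated protein-coding transcript, against 495 (94.1%) of the first ones.

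Start codons could be compared between promoters in 421 genes, and in 296 of these (70.3%, 65.8 to 74.5) at least 1 pair of marked promoters had no annotated start codon in common. In the other 105 genes (20%) they could not be compared. In 226 genes with different starts, complete proteins were annotated for the first and a later promoter. The longest later protein was shorter in 156 (69%, 62.7 to 74.7), longer in 67 (29.6%) and equal in 3. Its median length was 93.0% of that of the first promoter, it was within 5% in 63 genes, and it was under 50% in 30 (13.3%). These are lengths of annotated proteins, which were not measured in this tissue.

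In Rtn4, which encodes the neurite growth inhibitor Nogo, the proteins had 1162 and 199 residues and the scores were 245.7 and 178.0. In Shank3, a scaffold of excitatory synapses, the longest proteins had 1805 residues at the first promoter (185.4) and 382 at the second (117.4), and no complete protein was annotated at the third (186.0). Rims2, a scaffold of the presynaptic active zone, had 1572 and 285 residues at its first and last promoters (192.8 and 213.4). In Pde4d the length fell along the gene, with 803 residues at the first promoter and 703, 678 and 584 at the last 3. The same was found in Pde4b, with 736, 721, 659, 564 and 503 residues.

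The longest complete protein annotated at a later promoter was far longer in a few genes. Proteins annotated as incomplete were left out, so a short value at a first promoter need not be the longest protein made there. Map2, which encodes a dendritic microtubule-associated protein, had 3 marked promoters. Its first scored 284.3, with a longest protein of 498 residues. Over its later promoters the longest protein had 1828 residues, and the scores there were 219.0 and 145.4. In Dst, which encodes the cytoskeletal linker dystonin, the longest proteins had 282 residues at the first promoter and 7406 over the later ones. In Ank2 they had 113 residues at the first promoter and 3926 at the third. In Bdnf both marked promoters, with scores of 122.6 and 99.4 and 16.2 kb apart, started transcripts whose longest protein had 249 residues. By the 5 kb separation these marked promoters of Bdnf held 3 and 5 annotated TSSs, and TSSs within a promoter were not told apart. A further annotated promoter of Bdnf, with 1 TSS, had no summit.

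**Figure D4:**
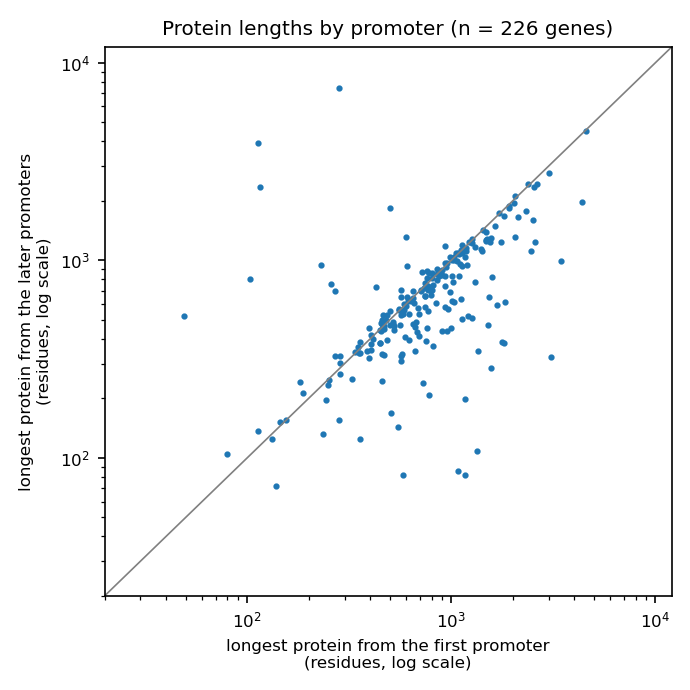
Longest annotated protein by promoter in 226 genes. The x axis gives residues from the first promoter and the y axis residues from the later promoters, both on log scales, each point is 1 gene, and the grey line marks equal lengths; 156 genes lie below it and 67 above.

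The selection favours long genes with several promoters, because 2 summits at a gene's own TSSs had to lie 5 kb or more apart. Reference genes needed TSSs only 3 kb or more apart. Gene length and promoter number are therefore given as a description, and the part of the selection in them was not tested. The 526 genes were long. Their median length was 128.9 kb (114.0 to 144.2), against 39.7 kb (38.1 to 41.0) in reference genes, and they had a median of 4 annotated promoters and 9 transcripts, against 2 and 6. Among the 6554 genes with separate TSSs and a qualifying summit, the share with separate marked promoters was 3.29% below 50 kb, 7.03% from 50 to 100 kb, 15.3% from 100 to 200 kb, 20.4% from 200 to 400 kb and 34.5% from 400 kb. By chromosome the share ran from 4.33% on chromosome 1 (18 of 416, 2.75 to 6.74) to 12.9% on chromosome 15 (33 of 256, 9.33 to 17.6). It was 8.84% on X (5.51 to 13.9). On every chromosome other than these extremes, the interval included the share of 8.03% over all such genes.

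Lists of genes by function were compared with the share of 8.03%, counting listed genes with separate TSSs and a qualifying summit. The lists were written with earlier results of these data known. Of the cyclic nucleotide phosphodiesterases, 8 of 15 had separate marked promoters (53.3%, 30.1 to 75.2), among them Pde4d, Pde4b, Pde10a (163.6 and 170.7), Pde1c (118.6 and 112.9) and Pde7b (136.6 and 105.4). Of the cytoskeletal linkers and microtubule proteins, 25 of 48 did (52.1%, 38.3 to 65.5), among them Ank2, Map2, Macf1, Ablim1 and Epb41l3. Of the synaptic scaffolds and release proteins, 17 of 43 did (39.5%, 26.4 to 54.4). Dlg2, which encodes the postsynaptic scaffold PSD-93, had scores of 234.2, 91.8 and 158.0 across 1144 kb, and Dlgap1 had 225.7 and 235.0.

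Of the synaptic adhesion genes, 12 of 36 had separate marked promoters (33.3%, 20.2 to 49.7), and Nrxn3 had 163.4 and 148.0 at a distance of 1090 kb. Of the genes for RNA-binding proteins 10 of 36 did (27.8%, 15.8 to 44), among them the splicing regulators Rbfox1 (198.1 and 183.5), Rbfox2 (179.8, 161.6 and 241.9) and Rbfox3 (218.8 and 174.7). Of the transcription factors 17 of 64 did (26.6%, 17.3 to 38.5), including the nuclear receptor gene Rora with 151.6 and 222.8.

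The shares of the remaining lists had intervals that reached close to the background or below it. They were 9 of 59 protein kinases and phosphatases (15.3%, 8.24 to 26.5), 9 of 61 ion channels and transmitter receptors (14.8%, 7.96 to 25.7), and 1 of 5 neurotrophin genes and their receptors, which was Bdnf. Of the H3K4 methyltransferases and demethylases, the enzymes that write and erase the mark, 0 of 13 did, with an upper limit of 22.8%. Over all listed genes with separate TSSs, summit or not, the basis first planned for the lists, the background was 4.86%, and the counts became 8 of 20 phosphodiesterases, 25 of 49 cytoskeletal genes, 17 of 46 scaffold and release genes, 12 of 43 adhesion genes, 10 of 41 RNA-binding genes, 17 of 74 transcription factors, 9 of 62 kinases and phosphatases, 9 of 64 channels and receptors, 1 of 5 neurotrophin genes and 0 of 16 H3K4 enzymes. Gene length differed among the lists as well. The median was 42.6 kb over all 6554 genes, 226 kb in phosphodiesterases, 377 kb in synaptic adhesion genes, 222 kb in ion channels and 39.5 kb in the H3K4 enzymes, and the part of length in the shares was not tested.

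**Figure D5:**
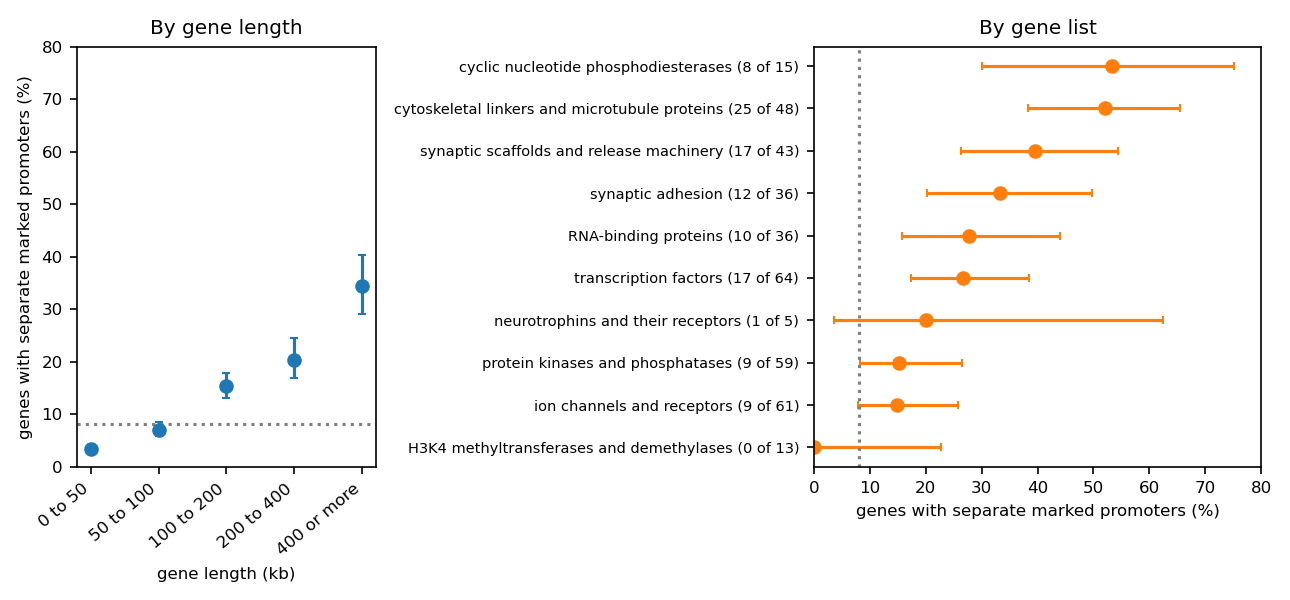
Share of genes with separate marked promoters (%) by gene length in kb (left, y axis) and by gene list (right, x axis), among genes with separate annotated TSSs and a qualifying summit. Points are shares, bars are 95% Wilson intervals and the dotted line is the 8.03% over all such genes; the share rises from 3.29% to 34.5% with length.

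Summits also lay between the marked promoters. Within the 526 genes, 386 summits between the outermost promoters were not promoter summits of the gene itself, and 284 of these (73.6%) were over 1 kb from every annotated TSS. Their median score was 9.05, and 35 (12.3%) reached 50. The highest were 268.8 in Stox2, which lay 1690 bp from the nearest TSS, 204.0 in Rabgap1l, 187.3 and 165.2 in Dlg2, and 161.6 in Slc2a3, which encodes the neuronal glucose transporter GLUT3. The 2 in Dlg2 lay 19877 and 21163 bp from the nearest TSS.

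The tissue label was compared with marker genes. All 7 neuronal markers had a promoter summit, with scores of 104.8 to 266.8, and the marker Rbfox3 was itself among the 526 genes. Astrocyte markers had summits of 29.2 to 174.3 at 6 of 6, and oligodendrocyte markers of 81.1 to 192.4 at 5 of 7. Microglial markers had weak summits of 6.81 to 28.9 at 5 of 5, and endothelial and mural markers of 15.5 to 70.4 at 6 of 6. None of 5 genes of tissues outside the brain had a promoter summit.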

How the data were processed

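Alignment by the authors was to mm10 with Bowtie, reads that mapped more than once were dropped, and MACS2 (2.1.0.20140616, per the labels) was run on the WT samples together. The deposited list gives a 1 bp summit and a score, which names no scale and was taken as −log10 q because its lowest value is 1.18. The list states no read depth. TSSs, transcripts and coding sequences were taken from GENCODE version M21 on GRCm38. Protein lengths are coding lengths without the stop codon. Sequences were read from the GRCm38 genome of NCBI.

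Summits on chromosomes 1 to 19 and X were used. Shares carry 95% Wilson intervals and medians 95% order-statistic intervals. No p-value was computed, because genes of 1 pooled list are not replicates. Genes named are those with the most promoters, the largest distance, the highest weakest promoter or the largest score differences, those at the thresholds, and up to 5 per list, plus genes singled out for protein length, CpG content or internal summits, which were chosen after their values were seen. The members and lists were chosen with earlier results of these data known. The selection was tested on simulated summits. Some genes, 1 gene list and some sequences are not reported here. Alternatives covered the score, window, distance, TSSs and exclusion. Python 3.11.15 with numpy 2.4.6, scipy 1.17.1, pandas 2.3.3 and matplotlib 3.10.9 was used.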

Additional observations from a re-analysis of the deposited data

How the results depend on the processing

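The number of genes was 695 with a score of 20 or more, 356 with 100 or more, 386 with a window of 500 bp, 461 with a distance of 10 kb, 431 with TSSs of protein-coding transcripts, 435 with exclusion near genes of every biotype and 705 without exclusion. As a share of genes with separate TSSs, 4.86% became 6.42%, 3.29%, 3.82%, 5.59%, 7.23%, 4.02% and 6.51% in the same order. With a window of 500 bp, a distance of 10 kb or protein-coding TSSs, the genes that could qualify, over which the share is taken, changed too. The median distance was 71.3 kb with a distance of 10 kb and 42.3 kb without exclusion, and the median CpG value of later promoters was 0.528 without exclusion. Counted around the summit, an alternative chosen after seeing the data, the CpG value of first promoters was 0.684, and the first exceeded the later in 67.2% of genes with 2 promoters. The share of genes whose first promoter scored highest and the share with different coding starts stayed within their intervals under the alternatives run. Exclusion near other genes removes alternative promoters shared with neighbours, and 179 genes were gained without it. No paired analysis was possible because the WT samples were pooled into 1 list. Depth per promoter is unknown, so an annotated promoter without a summit is one not called in this list.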

Other observations

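Of the 625 pairs of neighbouring marked promoters, 233 (37.3%, 33.6 to 41.1) had at least 1 further summit between them. Without exclusion near other protein-coding genes, 179 genes were gained, of which 1, Palm2, had 3 marked promoters.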
